A study of Homo sapiens with 9 samples.

Results

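The comparison described here sets both DHE libraries of a dose set, labelled high and low, against the single DMSO library of that set. The members were chosen by their titles: of the 9 libraries of the series, the 3 without a replicate number belong to it, 2 on the DHE side and 1 on the DMSO side, and all genes were considered. PolyA RNA was sequenced in all 9 from Hep3B cells, a human hepatoma line in wide use, after 6 h of hypoxia. The DHE libraries received a compound labelled DHE and the DMSO library received the solvent alone. The labels give no concentration for high or low, and they do not say whether the libraries came from separate cultures. The other 6 libraries, 3 with DMSO and 3 with DHE, are a replicated set that shares no library with the dose set and serves below only for independent values beside it. The series title concerns citrullination and HIF-1A, and the comparison asks how DHE alters the transcription of hypoxic liver cancer cells.

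Hypoxia stabilises the alpha subunits of the hypoxia-inducible factors, which then raise genes of glycolysis, angiogenesis and erythropoietin synthesis. Hepatocytes, and liver cancer lines that keep part of their identity, secrete albumin, complement, clotting factors and apolipoproteins into the plasma. Bone morphogenetic proteins (BMPs) act on hepatocytes through SMAD proteins, which raise the ID genes, the inhibitory SMADs and HAMP, the gene of the iron hormone hepcidin.

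A gene was measured where any of the 3 libraries held 20 counts or more, which left 13468 genes. Of these 409 (3.04%) were at least 2-fold from DMSO in the same direction in both DHE libraries: 314 (2.33%) were lower in both and 95 (0.705%) higher in both. The lower group held HAMP, the BMP-responsive transcription factor gene ATOH8, ID1, ID2, ID4 and mRNAs of plasma proteins such as KNG1, C3 and GC. The higher group held THBS1, PTHLH, ATF5, EGR1 and TUBA1A. With 1 control library no test across genes was made, and both ratios of a gene share that library, so an unusual level in it enters both. Ratios are log2 ratios of CPM (counts scaled to the library total) scaled by the trimmed mean of M-values (TMM), with a prior count of 2. Folds are ratios of the scaled CPM, with 95% exact binomial (Clopper-Pearson) intervals that cover counting error only. Where 3 values of a gene follow each other, their order is DMSO, high, low.

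Promoter sequences of 5 genes on which the results turn are given first, so that the members can be seen beside their values. They run from 250 bases before to 50 after the RefSeq start, on the plus strand of GRCh38.p14, 5′ to 3′, with a motif in capitals. HAMP (chr19:35282278-35282577) carries GGCGCC, the core of the BMP response element, in capitals at position -105 from the start. EGR1 (chr5:138465229-138465528) carries 2 CArG boxes, the motif of serum response factor. ID1 (chr20:31605039-31605338), AFP (chr4:73435971-73436270) and MT2A (chr16:56608334-56608633) carry TATAAA, the TATA box, and in ID1 overlapping matches on both strands are joined. HAMP, ID1 and AFP were lower in both DHE libraries, and EGR1 and MT2A were higher in both.
HAMP: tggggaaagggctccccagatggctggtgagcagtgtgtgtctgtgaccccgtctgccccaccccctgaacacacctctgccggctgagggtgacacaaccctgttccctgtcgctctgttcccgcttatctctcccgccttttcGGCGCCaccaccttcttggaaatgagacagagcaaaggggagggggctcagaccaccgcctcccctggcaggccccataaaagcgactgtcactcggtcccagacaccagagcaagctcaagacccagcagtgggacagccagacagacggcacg
EGR1: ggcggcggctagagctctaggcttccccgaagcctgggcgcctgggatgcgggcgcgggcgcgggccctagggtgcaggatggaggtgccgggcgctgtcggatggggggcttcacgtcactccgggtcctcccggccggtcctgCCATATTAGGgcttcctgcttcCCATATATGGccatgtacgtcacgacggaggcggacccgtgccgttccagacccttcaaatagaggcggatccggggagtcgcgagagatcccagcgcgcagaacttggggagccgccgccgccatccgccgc
ID1: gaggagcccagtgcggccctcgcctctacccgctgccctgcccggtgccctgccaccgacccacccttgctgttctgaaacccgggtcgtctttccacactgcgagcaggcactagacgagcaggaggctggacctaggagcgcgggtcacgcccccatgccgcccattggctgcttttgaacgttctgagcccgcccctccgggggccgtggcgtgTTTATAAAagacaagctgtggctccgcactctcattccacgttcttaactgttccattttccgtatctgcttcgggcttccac
AFP: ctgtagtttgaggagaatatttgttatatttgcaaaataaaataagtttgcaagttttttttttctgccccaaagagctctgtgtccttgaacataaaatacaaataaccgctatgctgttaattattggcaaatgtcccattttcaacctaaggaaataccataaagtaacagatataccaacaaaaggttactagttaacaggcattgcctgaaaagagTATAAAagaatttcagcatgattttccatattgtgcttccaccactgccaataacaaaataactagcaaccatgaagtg
MT2A: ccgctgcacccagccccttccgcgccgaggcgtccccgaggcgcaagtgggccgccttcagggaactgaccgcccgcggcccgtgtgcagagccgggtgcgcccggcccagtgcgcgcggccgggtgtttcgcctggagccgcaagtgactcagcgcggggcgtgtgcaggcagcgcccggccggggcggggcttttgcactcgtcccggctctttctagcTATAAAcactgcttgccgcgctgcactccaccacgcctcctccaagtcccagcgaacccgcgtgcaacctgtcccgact

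Of the genes 2-fold in both libraries, 74 higher and 216 lower ones had a promoter in the RefSeq table, as had 10727 of all genes measured. TATAAA, searched on both strands, was in 17.6% of the promoters of the higher genes and 13.4% of those of the lower genes, against 5.61% of all. The hypoxia response core, ACGTG or GCGTG on either strand, was in 56.8% and 52.8% against 63.1%, and CAGACA, which holds the SMAD box, in 16.2% and 19.9% against 12.3%. GGCGCC, added after the values were seen, was in 20.3% and 25% against 30.4%. The CArG box was in 1.35% and 1.85% against 0.970%, the AP-1 motif TGANTCA in 6.76% and 3.24% against 4.36%, and the ATF4 motif TGATGNAA in 4.05% and 3.24% against 1.65%. A match says only that these letters stand in the window.

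The libraries held 26956140 (DMSO), 25508263 (high) and 22167516 (low) counts, and the 10 most abundant genes took 11.3%, 9.07% and 7.15% of them. The liver markers ALB, AFP, APOA1, APOB, SERPINA1, TF and HNF4A had over 100 counts in all 3 libraries, as the label asks. Of listed markers of other cells, the leukocyte gene PTPRC had 0, 4 and 0 counts. The endothelial genes VWF and KDR had 0 in all 3 libraries, and the fibroblast genes DCN and ACTA2 also had 0. Other listed markers were not absent: the leukocyte gene LYZ stood at 109, 97.8 and 65.9 CPM, scaled over all 9 libraries. Against the replicated DMSO libraries LYZ was higher in both DHE libraries, with log2 ratios of 1.40 and 0.83. LTB, LUM, PDGFRB and PECAM1 were also measured and are taken up below. The dose-set DMSO library differed widely from the replicated DMSO libraries at the same genes. Scaled over all 9 libraries, it was itself at least 2-fold above the mean of the replicated DMSO libraries for 132 of the 314 lower genes and at least 2-fold below it for 39 of the 95 higher ones. Set and control library cannot be told apart. Genes that turn direction in both DHE libraries against the replicated DMSO libraries are named, with those ratios, beside or after the dose-set values.

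Most genes that were 2-fold in both libraries stood further from DMSO in the library labelled low. Whether these labels were swapped could not be checked from the data, so high and low serve here as names of libraries and not as an order of dose. This held for 250 of the 314 lower genes and 75 of the 95 higher ones. The median log2 ratio of the lower genes was -1.34 in the library labelled high and -1.88 in that labelled low, and that of the higher genes 1.32 and 1.94, against 0.01 and 0.01 over all genes measured. Taken alone, the library labelled low had 889 genes (6.6%) at least 2-fold lower and 408 (3.03%) higher, and the library labelled high 456 (3.39%) lower and 127 (0.943%) higher. The gene just inside the threshold upward was ACTR3C, whose smaller log2 ratio was 1.005, and the gene just inside downward was ZFP36 at -1.003. DYNLL1 at 0.998 and TBC1D8 at -0.998 stood just outside. ACTR3C was lower against the replicated DMSO libraries, with log2 ratios of -0.39 and -0.53.

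**Figure D1:**
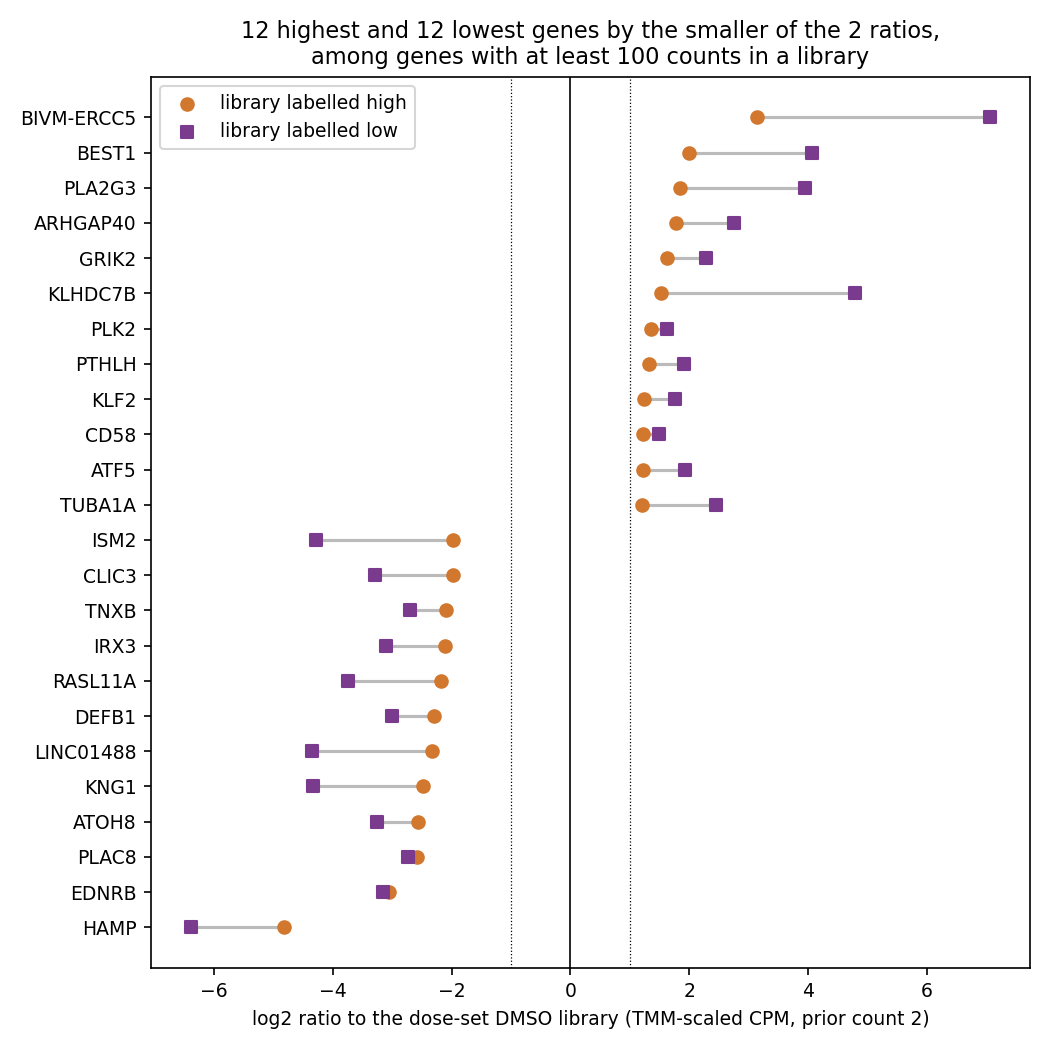
Log2 ratio to the dose-set DMSO library (x axis) for the 12 highest and 12 lowest genes by the smaller ratio, among genes with at least 100 counts in a library; circles stand for the library labelled high, squares for that labelled low, and dotted lines mark 2-fold. The squares lie further from 0 than the circles for all 24 genes shown, and HAMP stands lowest.

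Genes of the BMP response were among the lowest. Of 30 listed genes of the TGF-beta and BMP response 25 were measured; 6 were 2-fold lower in both libraries and 0 were higher (2.33% and 0.705% of all genes). HAMP, hepcidin, had 171 counts with DMSO, 4 in the library labelled high and 0 in that labelled low, or 6.64, 0.157 and 0 scaled CPM. For high this was 42.3-fold lower (interval 16.2 to 157), and for low at least 51.4-fold lower, taken at a floor of 3 counts in that library. In the replicated set HAMP had too few counts to be tested, with 0.0603, 0.253 and 0.411 CPM in the DMSO libraries and 0.0377, 0 and 0.204 in the DHE libraries. HAMP thus exceeded 1 CPM in the dose-set DMSO library alone, and its ratio rests on that library.

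ATOH8, a basic helix-loop-helix transcription factor gene that responds to BMP in hepatocytes, stood at 12.7, 2.08 and 1.25 CPM. That is 6.09-fold lower (4.55 to 8.31) and 10.1-fold lower (6.93 to 15.4). ID1, an inhibitor of basic helix-loop-helix factors and a direct SMAD target, stood at 581, 173 and 73.4 CPM, 3.36-fold (3.25 to 3.48) and 7.91-fold lower (7.53 to 8.32). Both genes were lower in the library labelled low than in that labelled high. ID2, of the same family, stood at 357, 168 and 122 CPM, 2.12-fold (2.04 to 2.20) and 2.93-fold lower (2.80 to 3.05). ID4 stood at 21.1, 6.35 and 6.24 CPM, 3.32-fold (2.78 to 3.98) and 3.38-fold lower (2.81 to 4.09). ID3, at 54.0, 23.7 and 31.6 CPM, was 2-fold lower only in the library labelled high, and 1.71-fold lower in the other (1.56 to 1.87). All 4 ID genes were thus below DMSO in both DHE libraries, and the library labelled low was not the lower of the pair for ID3.

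The inhibitory SMAD genes, which dampen the same pathway, were also lower in both. SMAD6 stood at 3.30, 1.57 and 1.42 CPM, 2.10-fold (1.43 to 3.15) and 2.32-fold lower (1.54 to 3.59). SMAD7 (33.4, 21.1 and 17.2 CPM) and BAMBI, a pseudoreceptor of the pathway (32.4, 23.7 and 16.7 CPM), were lower without reaching 2-fold in both. Genes of the TGF-beta branch went both ways. TGFB1, the ligand, stood at 348, 462 and 579 CPM and its receptor TGFBR1 at 34.3, 46.8 and 48.4. LTBP1, which binds latent TGF-beta in the matrix, was also higher in the DHE libraries, at 194, 308 and 341 CPM. TGFBI, a matrix protein, stood at 717, 444 and 284 CPM, below DMSO in both libraries. TGFBR1 was lower against the replicated DMSO libraries, with log2 ratios of -0.49 and -0.45. Over the 25 genes, 14 were below DMSO in both libraries and 4 above (38.1% and 41.4% of all genes). The median log2 ratios were -0.21 and -0.40.

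The replicated set gave other values for these genes. In edgeR (quasi-likelihood, p adjusted by Benjamini-Hochberg over 14492 genes), where 13.4% of genes were called higher and 12.8% lower, 14 of 24 tested genes of the list rose and 4 fell. ID1 was at 352, 335 and 369.9 CPM in the DMSO replicates and 302, 287 and 286 in the DHE replicates, and fell by 0.27 ± 0.05 (log2, SE; adjusted p = 0.00243). ID2 fell by 0.18 ± 0.05 (adjusted p = 0.0158). ATOH8 rose by 0.38 ± 0.13 (adjusted p = 0.0442), SMAD6 by 0.45 ± 0.11 (adjusted p = 0.0113) and BAMBI by 0.74 ± 0.08 (adjusted p = 3.79e-05). ID4 rose from 2.02, 2.44 and 1.81 CPM to 3.69, 5.38 and 4.96, by 1.16 ± 0.21 (adjusted p = 0.00143). ID4 also stood higher in the dose-set DHE libraries than in the replicated DMSO libraries, with log2 ratios of 1.71 and 1.67 to that other control, and so did ID3, with 0.87 and 1.27. Of the BMP genes, ID1 and ID2 were therefore lower with DHE in both sets, while ATOH8, ID4 and SMAD6 were lower in the dose set and higher in the replicated one.

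Genes of metallothioneins and iron handling went both ways. Of 14 measured, 6 were above DMSO in both DHE libraries and 6 below (41.4% and 38.1% of all genes), with medians of 0.08 and -0.20. TMPRSS6, a membrane protease that restrains hepcidin, is not on that list and was chosen after its values were seen. It stood at 75.4, 25.5 and 6.63 CPM, 2.96-fold (2.71 to 3.24) and 11.4-fold lower (9.65 to 13.5). HFE2 (now HJV), the BMP co-receptor hemojuvelin and a list member, stood at 8.39, 3.73 and 3.92 CPM, 2.25-fold (1.76 to 2.90) and 2.14-fold lower (1.67 to 2.77). TFR2, the transferrin receptor of the iron-sensing complex, stood at 6.37, 3.41 and 1.72 CPM. None passed the replicated test (edgeR adjusted p = 0.198, 0.159 and 0.0794 in that order), and their directions there differed. Scaled over all 9 libraries, TMPRSS6 was at 103, 105 and 112 CPM with DMSO and 106, 118 and 125 with DHE. TFR2 was at 4.81, 5.31 and 6.08 CPM with DMSO and 5.20, 8.72 and 8.44 with DHE. HFE2 leaned lower, from 2.47, 2.34 and 2.37 CPM to 1.98, 1.25 and 1.84. Against the replicated DMSO libraries HFE2 stood higher in both DHE libraries, with log2 ratios of 0.71 and 0.77.

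**Figure D2:**
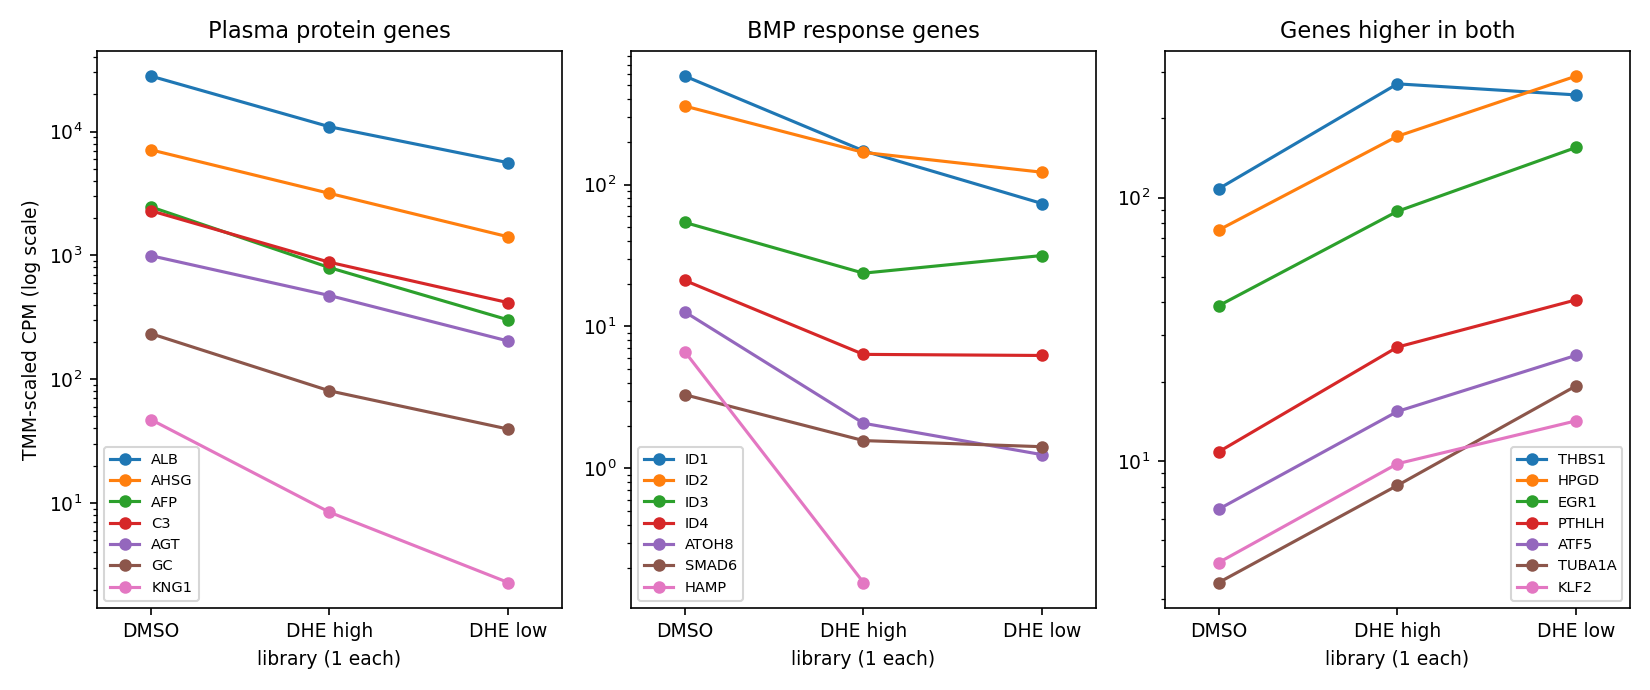
TMM-scaled CPM (log axis) in the 3 dose-set libraries, 1 point for each library and gene, for plasma protein genes (left), BMP response genes (middle) and genes higher in both DHE libraries (right). Lines join the points of a gene, and HAMP has no point in the library labelled low because its count there was 0; the left and middle genes lie below their DMSO point in both DHE libraries and the right genes above it.

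Genes for secreted plasma proteins formed the largest group of lower genes among the lists. Of 44 listed genes 37 were measured. In both libraries 11 were 2-fold lower and 0 higher (2.33% and 0.705% of all genes). Below DMSO in both were 33 and above 1 (38.1% and 41.4% of all genes). Their median log2 ratios were -0.55 and -1.25, and their summed level was 66228, 38629.8 and 24743 CPM. In the library labelled low alone 23 of the 37 were 2-fold lower (6.6% of all genes), and in that labelled high alone 12 (3.39%). Fewer cells keeping the hepatocyte programme and less mRNA per cell cannot be told apart in bulk RNA.

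KNG1, kininogen, the precursor of bradykinin, had the lowest ratios of these, at 47.2, 8.43 and 2.28 CPM, 5.60-fold (4.84 to 6.51) and 20.7-fold lower (15.7 to 27.8). C3, the central complement component, stood at 2293, 879 and 415 CPM, 2.61-fold (2.57 to 2.65) and 5.52-fold lower (5.41 to 5.64). GC, the vitamin D carrier, stood at 233, 80.5 and 39.6 CPM, 2.90-fold (2.76 to 3.05) and 5.90-fold lower (5.5 to 6.33). These 3 genes kept the same order of libraries, DMSO above high above low. AHSG, fetuin-A, stood at 7113, 3167 and 1412 CPM, 2.25-fold (2.23 to 2.27) and 5.04-fold lower (4.98 to 5.10). AGT, the precursor of angiotensin, stood at 994, 474 and 203 CPM, 2.10-fold (2.05 to 2.14) and 4.89-fold lower (4.74 to 5.04). HPX, hemopexin, the haem scavenger, stood at 13.6, 5.61 and 2.07 CPM, 2.42-fold (1.99 to 2.97) and 6.58-fold lower (4.86 to 9.09). The rest of the 11 were ALB, AFP, APOC3, FETUB and C4BPA.

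Apolipoprotein genes did not move as a block. APOC3, an inhibitor of lipoprotein lipase, stood at 87.1, 41.9 and 16.1 CPM, 2.08-fold (1.93 to 2.24) and 5.40-fold lower (4.84 to 6.04). APOA1, the main protein of HDL, stood at 1659.9, 847 and 338 CPM and missed 2-fold in the library labelled high, at 1.96-fold lower (1.93 to 1.99). APOB, the scaffold of VLDL and LDL, stood at 3043, 3592 and 2278 CPM, above DMSO in one library and below it in the other. APOA2, the second protein of HDL, was the 1 gene of the list above DMSO in both, at 2882, 3788 and 4185 CPM, 1.31-fold (1.3 to 1.33) and 1.45-fold higher (1.44 to 1.47).

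In the replicated set 14 of these 37 genes fell and 9 rose (12.8% and 13.4% of all tested genes), with a median log2 change of -0.09. KNG1 went from 30.7, 32.9 and 32.5 CPM in the DMSO replicates to 20.4, 19.2 and 18.4 with DHE and fell by 0.73 ± 0.08 (adjusted p = 4.34e-05). AHSG fell by 0.40 ± 0.05 (adjusted p = 0.000211), C3 by 0.29 ± 0.06 (adjusted p = 0.00324) and AFP by 0.29 ± 0.05 (adjusted p = 0.00146). GC was at 0.06 ± 0.05 (adjusted p = 0.409) and AGT at 0.14 ± 0.05 (adjusted p = 0.0567). HPX rose by 0.72 ± 0.12 (adjusted p = 0.000691) and APOA1 by 0.28 ± 0.07 (adjusted p = 0.00961). The ratios of the dose set depended on its own DMSO library: against the replicated DMSO libraries 4 of the 37 genes were 2-fold lower in both DHE libraries and the list's medians were 0.53 for high and -0.22 for low. AFP, at 187, 184 and 182 CPM in the replicated DMSO libraries, stood higher in both dose-set DHE libraries than there, with log2 ratios of 2.24 and 0.83, and so did APOA1, with 1.70 and 0.36. ALB, AHSG, AGT, APOC3 and C4BPA were above that control in the library labelled high alone. KNG1 and C3 were lower against either control, with log2 ratios to the replicated DMSO libraries of -1.78 and -3.66 for KNG1 and -1.68 and -2.78 for C3.

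Among 22 measured genes of hepatocyte transcription factors, 3 were 2-fold lower in both libraries and 1 was higher (2.33% and 0.705% of all genes). Below DMSO in both were 16 and above 3 (38.1% and 41.4% of all genes), and the median log2 ratios were -0.25 and -0.58. NR1H4, the bile acid receptor FXR, stood at 16.9, 5.22 and 4.61 CPM, 3.23-fold (2.66 to 3.96) and 3.66-fold lower (2.96 to 4.57). CREB3L3, a membrane-bound liver factor, stood at 30.4, 11.5 and 4.61 CPM, 2.64-fold (2.31 to 3.03) and 6.60-fold lower (5.38 to 8.15). TBX3, a T-box repressor, stood at 35.0, 12 and 10.2 CPM, 2.91-fold (2.55 to 3.32) and 3.45-fold lower (2.99 to 4). HNF4A, which maintains hepatocyte identity, stood at 243, 242 and 171 CPM, level with DMSO in the library labelled high (interval of the ratio 0.967 to 1.04) and below it 1.42-fold in the other library (1.37 to 1.48). ATF5, a stress-responsive bZIP factor, was the higher gene, as given below. In the replicated set 9 of the 22 rose and 2 fell (13.4% and 12.8% of all tested genes). NR1H4 fell there by 0.56 ± 0.14 (edgeR adjusted p = 0.0101) and HNF4A rose by 0.51 ± 0.05 (edgeR adjusted p = 2.29e-05). Against the replicated DMSO libraries TBX3 stood higher in both DHE libraries, with log2 ratios of 0.93 and 0.67, and the list's medians were 0.53 and 0.07.

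Genes of amino acid catabolism and of fatty acid oxidation were mostly below DMSO by less than 2-fold. Of 22 measured genes of the urea cycle and amino acid catabolism 18 were below DMSO in both libraries and 1 above, with medians of -0.33 and -0.66. Of these 1 gene, ARG1, was 2-fold lower in both (2.33% of all genes). Of 22 measured genes of fatty acid oxidation 17 were below in both and 1 above, with medians of -0.21 and -0.39; over all genes 38.1% were below DMSO in both and 41.4% above. HPD, an enzyme of tyrosine breakdown, stood at 17.1, 8.71 and 5.12 CPM. GLUD1, glutamate dehydrogenase, stood at 363, 241 and 157 CPM. The urea cycle and amino acid list turned direction against the replicated DMSO libraries, where 14 genes were above in both DHE libraries and 6 below, with medians of 0.70 and 0.40. ARG1 had log2 ratios of 3.36 and 2.90 there and GLUD1 of 0.90 and 0.27, while fatty acid oxidation had medians of -0.08 and -0.21. Ribosomal protein genes were lower by a small amount, all 49 below DMSO in both libraries with medians of -0.28 and -0.30. The amount differed between genes, and RPL3 stood at -0.50 and -0.68. Scaling by library totals alone moved the median of all genes from 0.01 and 0.01 to 0.08 for high and 0.15 for low; under it 44 of the 49 were below DMSO in both libraries, as they did on log2(TPM + 1).

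Hypoxia targets outside glycolysis were shifted slightly. None reached 2-fold in both libraries, but only 3.04% of all genes did in the same direction, so none among 48 says little. Of the 48 genes 25 were below DMSO in both and 13 above, beside 38.1% and 41.4% of all genes. The medians were -0.17 and -0.18. Scaling by library totals gave medians of -0.10 and -0.04, with 24 below and 17 above, and log2(TPM + 1) gave -0.06 and -0.02, with 23 below and 18 above. LOX, the collagen-crosslinking oxidase, stood at 536, 287 and 149.6 CPM, 1.87-fold (1.82 to 1.92) and 3.58-fold lower (3.45 to 3.72). EPO, erythropoietin, stood at 50.8, 28 and 11.8 CPM, 1.81-fold (1.65 to 1.99) and 4.29-fold lower (3.77 to 4.91). ANKRD37, an ankyrin-repeat target of HIF-1, stood at 27.2, 14.9 and 10.8 CPM, 1.83-fold (1.61 to 2.08) and 2.53-fold lower (2.18 to 2.93). These 3 genes had the lowest smaller ratios of the list, and IGFBP1, near 2-fold lower for high (log2 -0.97), was above DMSO for low (0.57). VEGFA, the angiogenic growth factor, stood at 558, 364 and 362 CPM, with the DHE libraries alike. CITED2, a negative regulator of HIF, stood at 259.5, 167 and 124 CPM. CA9, carbonic anhydrase IX, stood at 853, 675 and 412 CPM and NDRG1, a stress-induced gene, at 1716, 1266 and 1203. ADM, adrenomedullin, stood at 157.9, 156 and 169 CPM, so that not every target was below DMSO. Each of these genes fell in the replicated set, by 0.57 (LOX), 0.75 (EPO), 0.90 (ANKRD37), 0.42 (VEGFA), 0.64 (CITED2), 0.35 (CA9), 0.67 (NDRG1) and 0.49 (ADM) on the log2 scale, with adjusted p between 3.47e-06 (NDRG1) and 0.00134 (EPO). Over the list 25 of 48 fell there and 4 rose (12.8% and 13.4% of all tested genes). Against the replicated DMSO libraries the list turned direction in the dose set, with medians of 0.17 and 0.04, 22 genes above in both DHE libraries and 15 below. EPO was higher than that control, with log2 ratios of 1.68 and 0.43, the dose-set DMSO library itself standing 2.53 above it. CITED2 was also higher, with 0.58 and 0.15, and CA9 was above it in the library labelled high alone, at 0.53.

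Of the HIF subunits, HIF1A stood at 105, 118 and 137 CPM, 1.13-fold (1.07 to 1.19) and 1.3-fold higher (1.24 to 1.37), and EPAS1 at 274, 242 and 223 CPM. HIF3A, which encodes a subunit with inhibitory forms, was the 1 pathway component of 17 measured that was 2-fold lower in both (2.33% of all genes). It stood at 5.98, 2.08 and 1.59 CPM, 2.88-fold (2.09 to 4.01) and 3.76-fold lower (2.61 to 5.53). HIF3A also fell in the replicated set, by 0.64 ± 0.10 (adjusted p = 0.000717), and HIF1A rose by 0.30 ± 0.05 (adjusted p = 0.000734). In glycolysis SLC2A3, a glucose transporter, was the 1 gene of 25 that was 2-fold lower in both (2.33% of all genes). It stood at 5.83, 2.12 and 0.344 CPM, and 8 counts remained in the library labelled low. LDHA and PGK1 were near their DMSO level, at 1828, 1851 and 1471 CPM and 1395, 1649 and 1405 CPM.

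**Figure D3:**
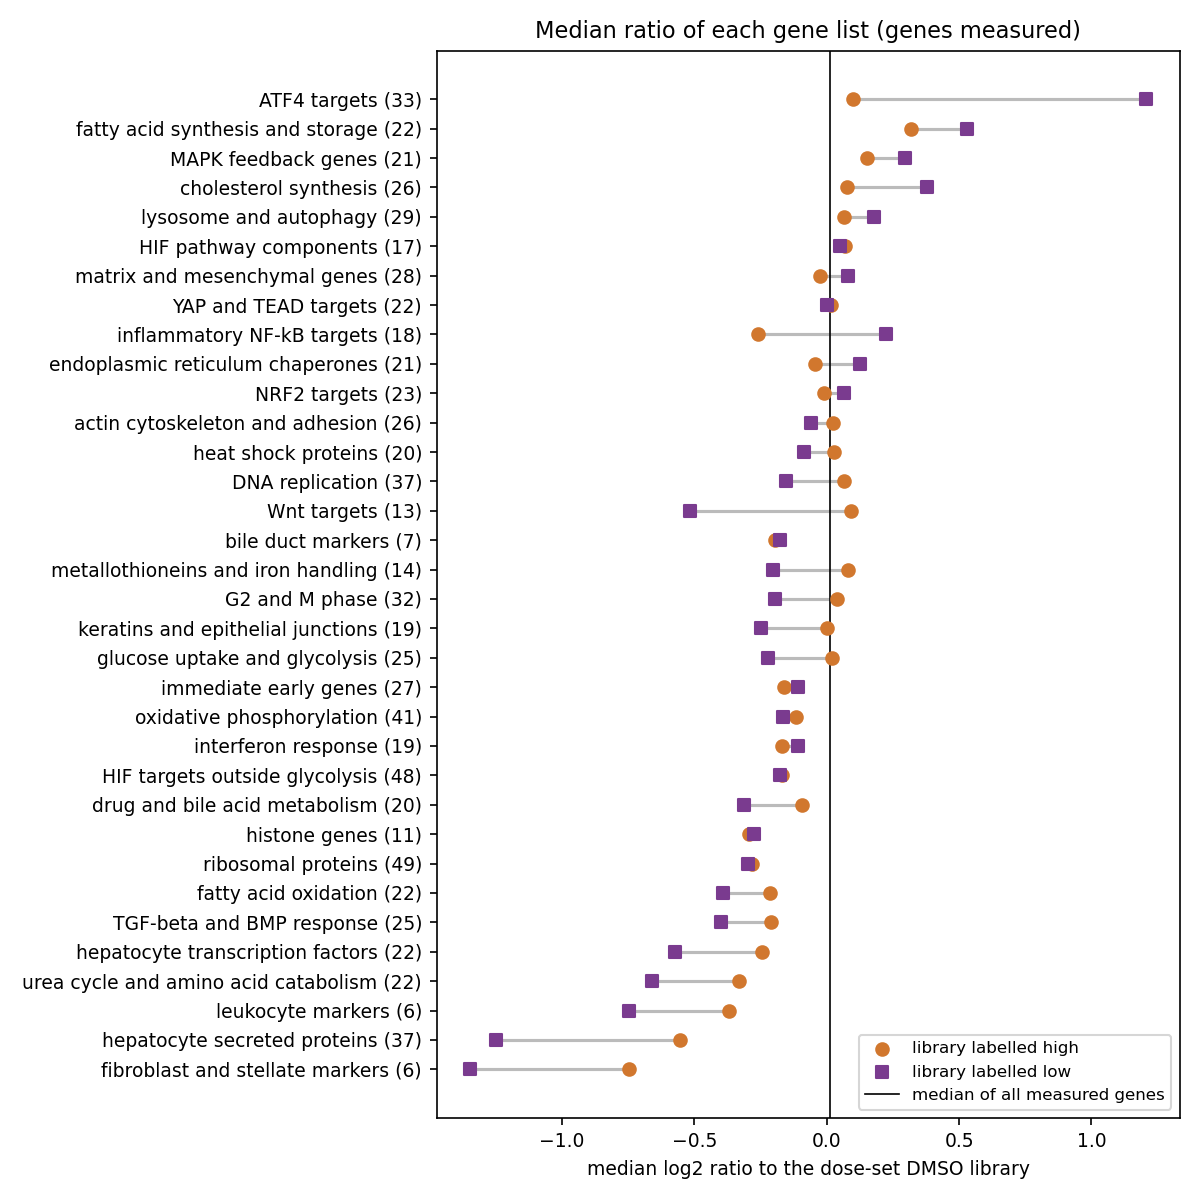
Median log2 ratio to the dose-set DMSO library (x axis) of the gene lists with at least 5 measured genes (1 such list is not shown), with the number measured in brackets; circles stand for the library labelled high, squares for that labelled low, and the vertical line for the median of all measured genes. The list of hepatocyte secreted proteins lies at -0.55 and -1.25 and that of ATF4 targets at 0.10 and 1.21.

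The 95 genes higher in both libraries included few list members. THBS1, thrombospondin, a matrix glycoprotein, stood at 108, 270.1 and 245 CPM, 2.50-fold (2.39 to 2.61) and 2.27-fold higher (2.17 to 2.38). PTHLH, parathyroid hormone-like hormone, stood at 10.8, 27.1 and 40.9 CPM, 2.50-fold (2.17 to 2.88) and 3.77-fold higher (3.30 to 4.33). TUBA1A, an alpha tubulin, stood at 3.46, 8.08 and 19.3 CPM, 2.34-fold (1.81 to 3.03) and 5.58-fold higher (4.43 to 7.08). THBS1 was alike in both DHE libraries, while PTHLH and TUBA1A were highest in that labelled low. ATF5 stood at 6.57, 15.4 and 25.2 CPM, 2.35-fold (1.96 to 2.83) and 3.84-fold higher (3.23 to 4.58). MT2A, a metallothionein, stood at 5.75, 11.6 and 25.2 CPM, 2.03-fold (1.66 to 2.48) and 4.39-fold higher (3.66 to 5.29). KLF2, a zinc finger factor of the immediate early list, stood at 4.12, 9.77 and 14.2 CPM, 2.37-fold (1.88 to 3.01) and 3.45-fold higher (2.76 to 4.34).

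These 6 genes rose in the replicated set as well, but they do not stand for the 95. Of the 75 higher genes tested there 22 rose and 51 were not called. THBS1 went from 309, 309 and 303 CPM to 725, 783 and 806 and rose by 1.33 ± 0.05 (adjusted p = 2.92e-08), and TUBA1A by 1.27 ± 0.09 (adjusted p = 2.49e-06). PTHLH rose by 1.05 ± 0.09 (adjusted p = 8.94e-06), MT2A by 1.24 ± 0.12 (adjusted p = 2.1e-05), ATF5 by 0.97 ± 0.13 (adjusted p = 0.000213) and KLF2 by 0.83 ± 0.18 (adjusted p = 0.00495). The dose-set DMSO library was low for THBS1: against the replicated DMSO libraries its log2 ratios were -0.05 for high and -0.21 for low. TUBA1A and MT2A were below that control in the library labelled high, at -0.69 and -0.43, and above it in that labelled low.

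EGR1, the immediate early zinc finger factor whose promoter is printed above, stood at 38.9, 88.7 and 155 CPM, 2.28-fold (2.12 to 2.46) and 3.99-fold higher (3.72 to 4.28). With replicates, EGR1 was at 56.8, 49.8 and 53.6 CPM with DMSO and 55, 47.7 and 48.1 with DHE (log2 change -0.09 ± 0.07, adjusted p = 0.38). ZFP36, a destabiliser of inflammatory mRNAs on the same list, was lower at 149, 74.3 and 62.5 CPM and fell in the replicated set by 0.57 ± 0.06 (adjusted p = 2.48e-05). Of the 27 measured immediate early genes 2 were higher in both libraries, EGR1 and KLF2, and 1 lower (0.705% and 2.33% of all genes). CCL20, a chemokine of the inflammatory list, stood at 337, 152 and 149 CPM, 2.22-fold (2.14 to 2.31) and 2.27-fold lower (2.18 to 2.36), and fell in the replicated set by 0.36 ± 0.06 (adjusted p = 0.000698). Against the replicated DMSO libraries CCL20 had log2 ratios of 0.15 and 0.11.

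Some of the highest ratios rested on few counts in the DMSO library. PLA2G3, a secreted phospholipase, had 12, 48 and 193 counts, 4.04-fold (2.11 to 8.35) and 17.8-fold higher (9.97 to 35.1), and rose in the replicated set by 1.62 ± 0.54 (adjusted p = 0.0419). BEST1, an anion channel, had 5, 26 and 105 counts, 5.25-fold (1.98 to 17.5) and 23.3-fold higher (9.66 to 73.2). KLHDC7B had 5, 18 and 175 counts, 3.63-fold (1.3 to 12.5) and 38.8-fold higher (16.3 to 121). The intervals of these genes are wide, and that of KLHDC7B in the library labelled high reaches below 2-fold. BIVM-ERCC5, a readthrough transcript that shares exons with BIVM and ERCC5, had 0, 16 and 247 counts and ranged in the replicated set from 0 to 11.6 CPM within the DHE libraries, so its count is uncertain. CD58, an adhesion ligand, stood at 2.14, 5.10 and 6.11 CPM, and against the replicated DMSO libraries its log2 ratios were -0.59 and -0.35.

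Genes of amino acid supply and lipid synthesis were higher chiefly in the library labelled low. Of 33 measured ATF4 targets 0 were 2-fold higher in both libraries (0.705% of all genes). Above DMSO in both were 21, and 1 was below. In the library labelled low alone 19 were 2-fold higher (3.03% of all genes) and in that labelled high 0 (0.943%). The list's median was 0.10 for high and 1.21 for low. SLC7A5, an amino acid transporter, stood at 67.2, 129.8 and 319.7 CPM, 1.93-fold (1.82 to 2.05) and 4.76-fold higher (4.51 to 5.01). PHGDH, the first enzyme of serine synthesis, stood at 76.9, 139 and 255 CPM, and ASNS, asparagine synthetase, at 64.9, 104 and 238. CHAC1 and DDIT3, stress targets of the same factor, stood at 16.7, 17.4 and 56.6 CPM and at 21.3, 14.9 and 33.8. DDIT3 was above DMSO in the library labelled low alone, and CHAC1 was near DMSO in that labelled high. SLC7A5 was below the replicated DMSO libraries in the library labelled high, at -0.70 (log2), and above them in that labelled low, at 0.59. In the replicated set 7 of 32 ATF4 targets rose and 9 fell (13.4% and 12.8% of all tested genes).

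Cholesterol synthesis genes were above DMSO in both libraries in 18 of 26 cases and below in 2 (41.4% and 38.1% of all genes). Their medians were 0.08 and 0.38, and 0 were 2-fold in both (3.04% of all genes). HMGCS1, the enzyme before HMG-CoA reductase, stood at 364, 512 and 834 CPM, 1.41-fold and 2.29-fold higher. Genes of fatty acid synthesis and storage were above in 13 of 22 cases and below in 6, with medians of 0.32 and 0.53. SREBF1, the lipogenic transcription factor, stood at 177, 311 and 347 CPM, 1.76-fold (1.70 to 1.83) and 1.97-fold higher (1.90 to 2.04). ACSL3, an acyl-CoA synthetase of lipid droplets, stood at 262, 466 and 653 CPM, 1.78-fold (1.73 to 1.83) and 2.49-fold higher (2.42 to 2.56). The replicated set had 22 of the 26 cholesterol genes rising and 0 falling (13.4% and 12.8% of all tested genes). SREBF1 and ACSL3 had edgeR adjusted p of 0.986 and 0.988 there.

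Markers of other cell types were measured in part. Of all genes measured, 2.33% were 2-fold lower in both libraries. Of 14 leukocyte markers 6 were measured and 1, LTB, was 2-fold lower in both libraries, at 93.9, 27.4 and 16.4 CPM; the summed level of the list was 225, 139 and 96.6 CPM. Of 13 fibroblast and stellate markers 6 were measured and 2 were lower, COL1A2 and PDGFRB, with sums of 41.4, 38.8 and 55.6 CPM, in which LUM took 17.9, 26 and 47.1. Of 12 endothelial markers 2 were measured and PECAM1 was lower, with sums of 15.4, 8.59 and 8.52 CPM, and of 10 bile duct markers 7 were measured and AQP1 was lower, with sums of 1197.5, 1145 and 1051. PTPRC, VWF, KDR, DCN and ACTA2 were at or near 0, as given above, while LYZ and other listed genes were not. Scaled over all 9 libraries, CD68 stood at 26.4, 18.8 and 15.3 CPM and ESAM at 8.53, 5.81 and 5.95. COL1A1 stood at 4.12, 1.92 and 2.09 CPM on that scale. The bile duct genes KRT19 and SOX9 stood at 634, 557 and 487 CPM and at 160, 185 and 190. Against the replicated DMSO libraries KRT19 was higher, with log2 ratios of 0.74 and 0.54.

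The replicated set was compared with all shared genes at once. Of the 95 higher genes 75 were tested there: 22 (29.3%) rose, 2 fell and 51 did not pass, beside 13.4% of all tested genes that rose. Of the 314 lower genes 279 were tested: 94 (33.7%) fell, 14 (5.02%) rose and 171 did not pass, beside 12.8% of all that fell. The 22 and the 94 are 1.13% and 5.06% of the replicated set's calls in their direction. Across 13285 genes, which are not independent replicates, the correlation of the dose-set ratio with the replicated change was 0.35 (Pearson) and 0.41 (Spearman) for high and 0.25 and 0.31 for low. The largest log2 difference between replicates of a group was smaller than both dose-set ratios for 64 of the 95 higher and 245 of the 314 lower genes. These genes were picked for their large ratios, so the selection partly fixed this count. The median of that largest difference was 0.94 for the higher and 0.62 for the lower genes, against 0.25 over all measured genes. That spread comes from other libraries, and none could be measured within the dose set.

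**Figure D4:**
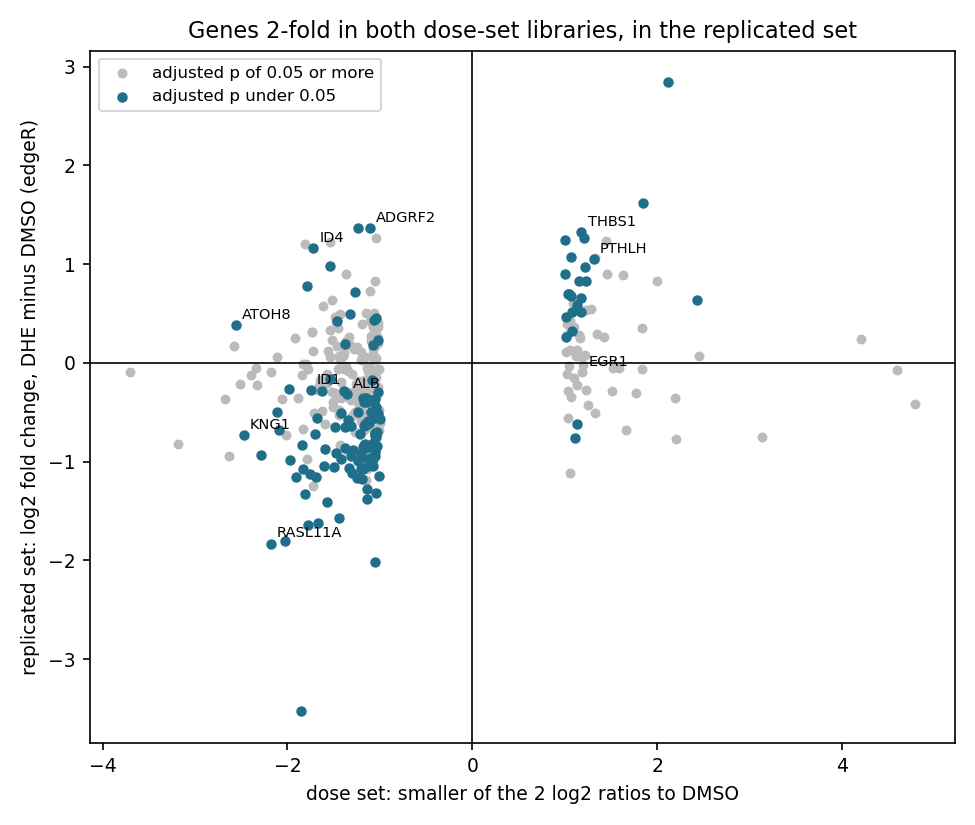
The smaller of the dose-set log2 ratios (x axis) against the log2 change of DHE over DMSO in the replicated set (y axis) for the genes 2-fold in both dose-set libraries and tested in the replicated set; dark points have an adjusted p under 0.05 by edgeR. ID4 and ATOH8 lie lower in the dose set and above 0 in the replicated set, and THBS1 and PTHLH lie above 0 in both.

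Against the mean of the replicated DMSO libraries as the control, a choice made after the values were seen, 126 of the 314 lower genes were still at least 2-fold lower in both DHE libraries, 214 were below in both and 57 were above in both. Of the 95 higher genes 36 were still 2-fold higher, 67 were above in both and 16 below in both. Among the 12 lowest genes of the plot by smaller ratio, all but EDNRB, LINC01488 and TNXB lay below either control in both libraries. RASL11A, a small GTPase of the Ras family, stood at 24, 5.22 and 1.72 CPM, 4.6-fold (3.80 to 5.58) and 13.9-fold lower (10.1 to 19.7), and fell in the replicated set by 1.83 ± 0.19 (adjusted p = 3.79e-05). EDNRB, the endothelin receptor B, stood at 4.47, 0.471 and 0.431 CPM, 9.49-fold (5.23 to 18.9) and 10.4-fold lower (5.44 to 22.2). EDNRB was at 0.0302, 0.112 and 0.0548 CPM in the replicated DMSO libraries, and against them its log2 ratios were 2.18 and 2.05. The long noncoding RNA LINC01488, at 9.44, 1.80 and 0.387 CPM, likewise had log2 ratios of 2.37 and 0.30 to that control.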

How the data were processed

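RNA of Hep3B cells was measured in 9 libraries at 6 h, and groups came from the sample titles. Per the file headers, the deposited values are expected counts, which are estimated counts without normalization, and TPM and FPKM values that the authors' quantification scaled for length and depth. FPKM was not used. The build was GRCh38 per the submitters' processing notes. Strand use, like the aligner and tool versions, was not given in the sources used here. Overlapping and antisense genes are thus uncertain. Of 26475 genes, 25884 (97.8%) matched the GRCh38.p14 RefSeq table by accession and 269 by symbol only.

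Expected counts were rounded. Log2 ratios of TMM-scaled CPM used a prior count of 2 and genes with at least 20 counts in 1 of 3 libraries, and no test was made in the dose set. A count of 0 allows 3 counts, or 0.111 to 0.135 CPM. The replicated set was tested with edgeR 4.0.16 (two-sided quasi-likelihood test, TMM, default filter, Benjamini-Hochberg, threshold 0.05) in R 4.3.3; its p-values rest on the spread among these libraries alone, which may be technical. The biological coefficient of variation was 8.37%. That script was tested on simulated counts. DESeq2 1.42.0, other scalings, priors, filters, folds, TPM, left-out libraries and another control were alternatives. Pairing by replicate number was not assumed in the main test.

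Named genes are the 12 highest and 12 lowest with at least 100 counts in a library, up to 4 members per list, 20 fixed genes, and up to 4 in each direction called the other way in the replicated set. Genes named outside this rule, such as ID2, ID3, SMAD6, TMPRSS6, AHSG, AGT, HPX, AQP1, ARG1, the apolipoproteins, CHAC1 and those in the closing section, were chosen after their values were seen. Members and the 37 lists were chosen with earlier results of these data known. Values of some single genes, among them members of the lists and of the cell line check, are not reported here.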

Additional observations from a re-analysis of the deposited data

Results flagged for a closer look

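In 8 of the genes named in the text and listed here, both dose-set DHE libraries lay at least 2-fold below their DMSO library. For the same genes all 3 DHE libraries of the replicated set lay above all 3 of its DMSO libraries. In each case the difference between the sets was not tested. Scaled over all 9 libraries, SLC2A3, TBX3, PDGFRB, GC and AGT had this order too and are not among the 8 listed. The smaller dose-set log2 ratio was -2.56 for ATOH8, a BMP-responsive transcription factor gene, and -1.72 for ID4. It was -1.79 for GUCY1A2, a subunit of soluble guanylate cyclase, at 15.8, 4.51 and 1.81 CPM in the dose set, where the replicated set rose by 0.78 ± 0.14 (edgeR adjusted p = 0.00174). It was -1.54 for BDH1, a ketone body dehydrogenase, at 6.41, 2.16 and 1.29 CPM, where the replicated set rose by 0.98 ± 0.18 (edgeR adjusted p = 0.0017). It was -1.08 for GADD45B, a stress-response gene, at 61.9, 29.3 and 24.5 CPM, where the replicated set rose by 0.18 ± 0.06 (edgeR adjusted p = 0.0363). GUCY1A2 and BDH1 were named only because the replicated set called them the other way, so their place here was fixed by that choice. HPX, SMAD6 and AQP1 were chosen for the text after their values were seen. Of all 279 lower genes tested in the replicated set 14 (5.02%) rose there, beside 13.4% of all tested genes. The smaller ratio was -1.27 for HPX, hemopexin, which rose in the replicated set by 0.72 ± 0.12 (edgeR adjusted p = 0.000691), and -1.04 for SMAD6, an inhibitory SMAD, which rose there by 0.45 ± 0.11 (edgeR adjusted p = 0.0113). It was -1.46 for AQP1, a water channel, at 2.84, 0.981 and 0.646 CPM, where the replicated set rose by 0.42 ± 0.12 (edgeR adjusted p = 0.022).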

How the results depend on the processing

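The counts of genes higher and lower in both libraries (95 and 314) stayed within 1.5 times under 5 other scalings and a prior count of 0.5. They were 39 higher with a prior count of 10, 34 and 147 with at least 100 counts, 224 and 604 with no filter, 36 and 80 on log2(TPM + 1), 427 and 898 at 1.5-fold, 25 and 74 at 3-fold, and 811 and 782 against the replicated DMSO libraries. With 1 DHE library left out they ranged from 127 to 408 higher and 456 to 889 lower. Of the secreted protein genes 11 were lower in both, 17 at 1.5-fold, 2 at 3-fold, 7 on log2(TPM + 1), 4 against the replicated DMSO libraries, and 12 to 23 with 1 DHE library left out; of the BMP list 6 were lower, with 4 to 9 under the other settings. Library totals alone gave 6979 genes above DMSO in both and 3923 below, in place of 5576 and 5130, and log2(TPM + 1) gave 7441 and 3562. On log2(TPM + 1), where the medians over all genes were 0.10 and 0.15, those of the BMP list were -0.10 and -0.22, of hepatocyte transcription factors -0.13 and -0.41, of fatty acid oxidation -0.12 and -0.23 and of cholesterol synthesis 0.17 and 0.53. Against the replicated DMSO libraries the smaller log2 ratio turned to -0.35 for CD58, 2.05 for EDNRB, 0.30 for LINC01488, 0.83 for AFP, 0.67 for TBX3, -0.0515 for THBS1, 1.67 for ID4, 0.11 for CCL20, 0.71 for HFE2, -0.39 for ACTR3C, 0.36 for AGXT, 2.90 for ARG1, 0.55 for C19orf80 and 0.46 for CKB; the cause was not tested. No other setting reversed a named gene that was 2-fold in both libraries. In the replicated set 1945 genes rose and 1858 fell; DESeq2 gave 1920 and 1782, and leaving out 1 library 1329 to 2032 and 1242 to 1948. With a replicate block they were 2250 and 2186. Deviations of same-numbered libraries from their group means correlated at 0.085, 0.0525 and -0.0477. With so few libraries these values do not settle whether the numbers pair them. With 1 control library no spread within the dose set could be measured, and genes under about 100 counts have wide counting intervals.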

Other observations

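Outside the gene lists, other liver genes were lower in both dose-set DHE libraries. AGXT, the peroxisomal enzyme that clears glyoxylate, stood at 53.4, 15.1 and 3.49 CPM (in the order DMSO, high, low), 3.53-fold (3.15 to 3.96) and 15.3-fold lower (12.2 to 19.4), and fell in the replicated set by 1.33 ± 0.25 (edgeR adjusted p = 0.00177). C19orf80 (now ANGPTL8), a secreted inhibitor of lipoprotein lipase, stood at 248, 108 and 65.8 CPM and fell there by 1.18 ± 0.08 (adjusted p = 9.83e-07). Both stood higher in the dose-set DHE libraries than in the replicated DMSO libraries, with log2 ratios of 2.47 and 0.36 for AGXT and 1.27 and 0.55 for C19orf80. LIPC, hepatic lipase, stood at 56.9, 28 and 16 CPM and fell by 0.52 ± 0.08 (adjusted p = 0.000713). MTTP, which loads lipid onto APOB, stood at 118, 58.7 and 23.9 CPM, and SERPINA6, the cortisol carrier, at 119, 55.5 and 28.6; neither passed the replicated test (adjusted p = 0.4 and 0.0986). CFI, a complement protease, stood at 35.1, 17.2 and 6.24 CPM, and the near-identical C4A and C4B, whose reads may be split between them, at 6.49, 2.98 and 1.64 and at 9.87, 4.04 and 2.11.

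CKB, brain-type creatine kinase, stood at 1923, 937 and 373 CPM, 2.05-fold (2.02 to 2.08) and 5.16-fold lower (5.05 to 5.28), and fell in the replicated set by 0.44 ± 0.05 (adjusted p = 4.46e-05); against the replicated DMSO libraries its log2 ratios were 1.80 and 0.46. EIF4A2, an RNA helicase of translation initiation, stood at 728, 356 and 259 CPM and fell by 0.70 ± 0.05 (adjusted p = 2.49e-06). Of the cytidine deaminase genes on chromosome 22, which resemble each other in sequence, APOBEC3C stood at 10.3, 4.47 and 2.58 CPM, APOBEC3D at 4.27, 1.14 and 0.603 and APOBEC3F at 18.8, 8.79 and 3.79. HPGD, the enzyme that inactivates prostaglandins, was higher at 75.3, 171 and 289 CPM, 2.27-fold (2.15 to 2.39) and 3.84-fold (3.65 to 4.04), and rose by 0.51 ± 0.10 (adjusted p = 0.00232).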
